A study of Homo sapiens with 2 samples.

Results

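Forkhead genes outside the FOXA group were examined for ING5 binding at their starts in HepG2 cells, an established human liver cancer line. They were taken as the protein-coding genes of the GENCODE 44 annotation whose symbol is FOX followed by a letter from B to S and a number, with the numbered copies FOXD4L1, FOXD4L3 and FOXD4L5 and with FOXO3B. FOXL2NB, which shares only the symbol of its neighbour, was left out. FOXD4L4 and FOXD4L6 have no entry in the annotation as used here and are missing. This gave 46 of 19819 protein-coding genes. The study made 1 ChIP-seq library with an antibody against ING5, a plant homeodomain subunit of histone acetyltransferase complexes that reads methylated histone H3, and 1 library of input DNA from the same untreated cells. The question was which genes the protein targets. Depth was 12416160 fragments for ING5 and 9915170 for input, and the input entered as the control of the deposited peak list. Each group had 1 library, so no value has a replicate error and no test between groups was made. Intervals of single pileups cover counting error only. Those of shares and medians treat genes or peaks as random draws, and none covers variation between libraries. None of 12 hepatocyte marker genes had an ING5 promoter peak, nor did any of 4 fibroblast or 4 blood cell markers, so the peak list carries no check of the labelled cell type. All positions are GRCh38.

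Forkhead proteins are transcription factors that bind DNA through a winged-helix domain, and many act as switches in tissue formation. The FOXO proteins are held in the cytoplasm when insulin signalling is active and otherwise turn on genes of stress resistance, cell cycle arrest and, in liver, glucose output. FOXK1, FOXK2, FOXP1, FOXJ2 and FOXJ3 are made in many tissues, while FOXC, FOXD, FOXF and others are known mainly from embryonic patterning. For the comparison, the FOXO, FOXK, FOXJ and FOXP genes formed a class of 14 broadly used genes, although FOXJ1, FOXO6, FOXP2 and FOXP3 in it are made in fewer tissues. The other 32 formed the developmental class, although FOXM1, FOXN2 and FOXN3 in it are not known mainly from embryonic patterning.

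An ING5 peak lay at the start of 13 of the 46 forkhead genes (28.3%, exact binomial 95% interval 16.0 to 43.5). A gene was counted when a peak had its summit within 1000 bp of any of its annotated transcription start sites (TSSs). The share over all protein-coding genes, the forkhead genes included, was 30.9%, which lies inside the forkhead interval. The 13 genes held 16 such peaks: FOXP1, FOXJ3 and FOXK2 had 2 each, and FOXK1, FOXC1, FOXM1, FOXO1, FOXN2, FOXD2, FOXO3, FOXP2, FOXF2 and FOXN3 had 1 each. Their median pileup, the number of fragments over the summit, was 12.5 (95% order-statistic interval 11 to 20), against 12 for all 7838 pairs of a gene and a promoter peak. The median fold enrichment over local background, as the authors' peak caller gave it, was 6.74 (6.22 to 11.3), against 6.66.

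The strongest promoter peaks stood at FOXP1, FOXK1 and FOXC1. These 3 genes, 6.52% of the forkhead genes, had a promoter peak among the 1000 most significant of the list, against 4.77% of all protein-coding genes. The pileups of their best peaks were 30, 29 and 25 fragments, with exact Poisson 95% intervals of 20.2 to 42.8, 19.4 to 41.6 and 16.2 to 36.9. These intervals overlap, so the order of the 3 genes is not resolved by counting. Each lower bound lies above the median of 12 over all genes. At the low end, FOXF2 and FOXN3 had 9 fragments each (4.12 to 17.1). The lowest pileup anywhere in the list was 7 fragments, so a start with weaker binding than that would appear here without a peak.

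**Figure D1:**
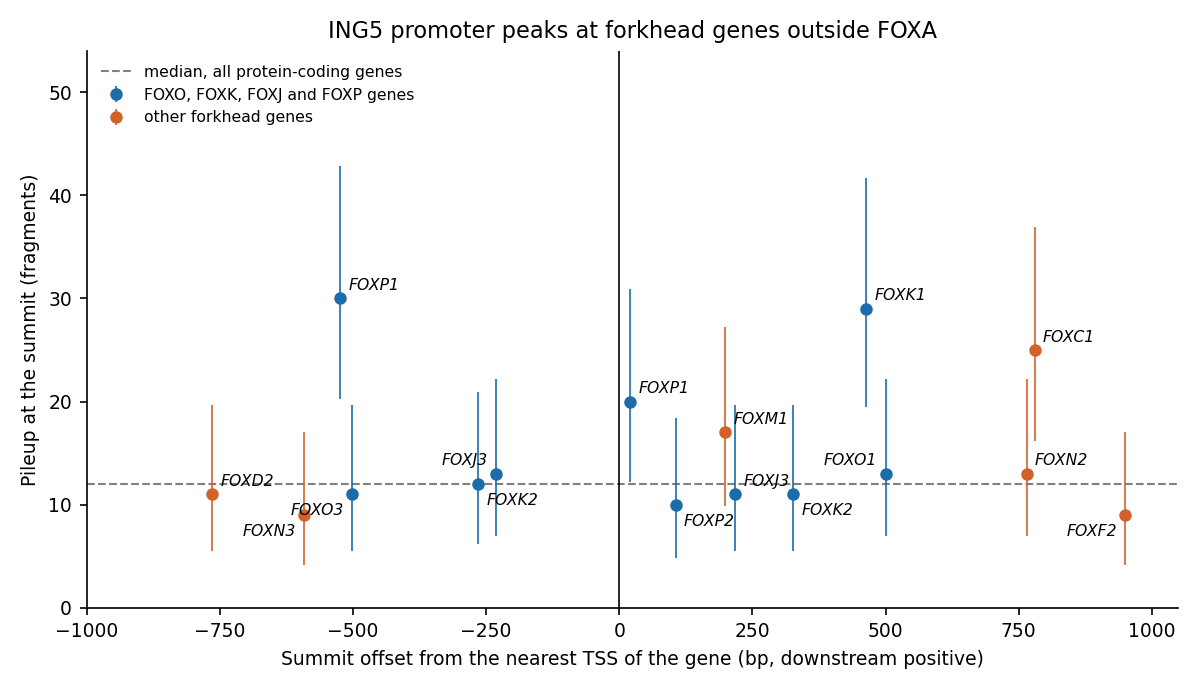
Pileup at the summit (fragments) against summit offset from the nearest TSS of the gene (bp) for the 16 promoter peaks at forkhead genes; bars are exact Poisson 95% intervals and the dashed line is the median over all protein-coding genes. FOXP1, FOXK1 and FOXC1 stand above the dashed line with their whole intervals, as does the second FOXP1 peak, and most others lie near 12.

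Promoters of human genes range from CpG islands to stretches with hardly a CpG, and the sequence before the start is shown for 4 members that span the range. FOXK1 and FOXC1 had strong peaks. FOXI3 had the highest ratio of observed to expected CpG among members without a peak (1.02), and FOXR2 the lowest of all members (0.127). Each line gives the 250 bases before the canonical TSS from RefSeq in GRCh38.p14, on the strand of the gene, with CpG in capitals.
FOXK1: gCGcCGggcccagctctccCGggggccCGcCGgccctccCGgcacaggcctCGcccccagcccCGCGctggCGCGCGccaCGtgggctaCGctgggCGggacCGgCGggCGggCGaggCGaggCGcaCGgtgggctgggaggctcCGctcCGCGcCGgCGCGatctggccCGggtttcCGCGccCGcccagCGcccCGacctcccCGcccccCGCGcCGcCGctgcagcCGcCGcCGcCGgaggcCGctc
FOXC1: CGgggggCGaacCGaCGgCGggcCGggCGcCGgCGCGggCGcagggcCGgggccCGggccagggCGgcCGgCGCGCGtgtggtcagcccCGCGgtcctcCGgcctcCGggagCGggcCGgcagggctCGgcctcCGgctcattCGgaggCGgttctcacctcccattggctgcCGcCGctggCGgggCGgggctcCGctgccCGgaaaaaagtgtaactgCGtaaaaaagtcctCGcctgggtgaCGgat
FOXI3: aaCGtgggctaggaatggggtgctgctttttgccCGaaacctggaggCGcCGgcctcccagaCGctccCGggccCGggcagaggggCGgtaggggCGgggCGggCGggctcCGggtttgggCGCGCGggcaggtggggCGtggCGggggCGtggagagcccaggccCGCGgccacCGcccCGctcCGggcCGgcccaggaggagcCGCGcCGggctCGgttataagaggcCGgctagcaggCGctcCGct
FOXR2: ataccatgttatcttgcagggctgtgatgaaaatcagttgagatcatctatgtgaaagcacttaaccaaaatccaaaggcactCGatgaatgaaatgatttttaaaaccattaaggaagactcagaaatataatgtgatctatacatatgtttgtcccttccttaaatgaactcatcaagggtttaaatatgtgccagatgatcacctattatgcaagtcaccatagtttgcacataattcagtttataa
These stretches are chr7:4682045-4682294, chr6:1609665-1609914, chr2:88452694-88452943 on the minus strand and chrX:55623150-55623399, and hold 44, 37, 31 and 1 CpG, against a median of 11 over 35116 promoters of the RefSeq table. FOXI3 thus held fewer CpG in this stretch than FOXC1, while its ratio of observed to expected CpG was higher, at 1.02 against 0.949. The nearest summit to FOXI3 was 174233 bp away.

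Among the FOXK genes, both had a promoter peak. FOXK1, a repressor of autophagy genes in fed cells, had 29 fragments and 16.2-fold enrichment at chr7:4682653-4682931, with the summit 464 bp downstream of its canonical TSS in a coding exon. It had rank 130 of the 8608 peaks. Next to it lay 2 weaker peaks in an intron, with 10 fragments at 1034 bp and 12 fragments at 1410 bp. FOXK1 thus carried a run of 3 peaks behind its start, of which the first was the tallest. Its Poisson lower bound of 19.4 lies near the upper bounds of the others, 18.4 and 21.0. FOXK2, its close paralogue, had 11 fragments and 6.47-fold enrichment 888 bp downstream of the canonical TSS and 326 bp from a nearer annotated start. Its other peak, with 12 fragments and 7.01-fold enrichment, lay 265 bp upstream of an internal start, 73403 bp into the gene. The intervals of FOXK1 and of both FOXK2 peaks, with upper bounds of 19.7 and 21.0 for FOXK2, meet narrowly.

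FOXP1 and FOXP2 had promoter peaks, and FOXP3 and FOXP4 had none. FOXP1 encodes a repressor needed in lymphocyte, heart and brain development. Its taller peak covered 1289 bp at chr3:71582111-71583399 with 30 fragments and 16.7-fold enrichment, rank 116. It was the longest of the forkhead promoter peaks and the only one of them of 1000 bp or more. A second peak followed at chr3:71581322-71581866, with 20 fragments (12.2 to 30.9) and 11.3-fold enrichment. Neither summit was within 1000 bp of the canonical FOXP1 start: they lay 1092 and 2232 bp downstream of it, and 524 bp upstream and 20 bp downstream of the nearest alternative starts. A long noncoding RNA gene also starts within 1000 bp of both summits. FOXP2, known for its role in speech and language, had 10 fragments and 5.94-fold enrichment 106 bp downstream of an alternative start, 328149 bp upstream of the canonical start. FOXP3, the regulator of regulatory T cells, had no summit nearer than 5478 bp, and the 2 peaks there lay at the start of PPP1R3F. For FOXP4 the nearest summit was 124014 bp away.

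Of the FOXO genes, FOXO1 and FOXO3 had a promoter peak and FOXO4, FOXO6 and FOXO3B had none. FOXO1, which drives glucose output genes in liver, had 13 fragments (6.92 to 22.2) and 7.55-fold enrichment at chr13:40665267-40665543. The summit lay 1264 bp downstream of the canonical TSS and 500 bp from a nearer annotated start. FOXO3, a regulator of stress resistance and cell death genes, had 11 fragments (5.49 to 19.7) and 6.47-fold enrichment at chr6:108559242-108559457, 502 bp upstream of its outermost start and 1584 bp upstream of the canonical one. The 2 pileups do not differ beyond their counting intervals, and both are near the median of all genes. The nearest summit was 1177683 bp from FOXO4, on the X chromosome, 120541 bp from FOXO6 and 304073 bp from FOXO3B. FOXO3B is a near-identical copy of FOXO3, and FOXD4 and its 3 copies among the members resemble each other in the same way. To judge by the alignment names in the file headers, multiply mapped fragments were removed, so a missing peak at such copies is no measure of binding.

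FOXJ3 had 2 promoter peaks on either side of its canonical start, and FOXJ1 and FOXJ2 had none. The upstream peak, at chr1:42335395-42335577, had 13 fragments and 7.55-fold enrichment with the summit 232 bp before the TSS, and was 183 bp long, the shortest of the 16. The downstream one had 11 fragments and 6.47-fold enrichment 488 bp behind the canonical TSS and 218 bp from a nearer start. Their intervals, 6.92 to 22.2 and 5.49 to 19.7, overlap almost fully. FOXJ1, the regulator of motile cilia, had a summit of 8 fragments in a coding exon 3594 bp downstream of its TSS, where the antisense gene RNF157-AS1 starts. FOXJ2 had no summit within 648249 bp.

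In the developmental class FOXC1 stood apart, with 3 peaks in and just behind a gene without introns. FOXC1 shapes the front of the eye and other mesenchyme, and its loss causes Axenfeld-Rieger syndrome. The peak within 1000 bp of the TSS covered 965 bp at chr6:1610498-1611462, with 25 fragments and 14.0-fold enrichment, its summit 780 bp downstream in the coding exon. A second, taller peak had its summit 2138 bp downstream, still in the coding exon, with 33 fragments (22.7 to 46.3) and 15.1-fold enrichment over a raised local background of 1.25 fragments. The third, with 23 fragments (14.6 to 34.5) and 12.9-fold enrichment, lay 4124 bp downstream, just past the annotated end of the gene. The 3 intervals overlap, so the pileups along FOXC1 do not differ beyond counting error. The 2 peaks farther in ranked 128 and 333 in the list, and neither counts as a promoter peak.

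FOXF2, which acts in palate and gut mesenchyme, lies 220339 bp before FOXC1 and was weaker. It had 9 fragments and 5.40-fold enrichment 950 bp downstream of its TSS, a peak of 11 fragments at 1798 bp in an intron and one of 12 fragments at 10999 bp, behind the gene. FOXQ1, a further 77478 bp before FOXF2, had no summit nearer than 16249 bp. A paralogous group on chromosome 16, FOXF1, FOXC2 and FOXL1, had none at all: the nearest summits were 526598, 582900 and 592439 bp away. FOXF1 acts in lung and gut mesenchyme and FOXC2 in lymphatic vessels. The paralogues FOXC1 and FOXC2 thus differed, with 25 fragments at the start of FOXC1 and no peak near FOXC2. FOXF2 had a peak and FOXF1 none, but the FOXF2 interval of 4.12 to 17.1 fragments reaches below the lowest pileup in the list, so a difference between them is not shown. FOXD2 was the only FOXD gene with a promoter peak, of 11 fragments and 6.47-fold enrichment, 764 bp upstream of its TSS.

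FOXM1 and 2 FOXN genes completed the bound members. FOXM1, an activator of genes for mitosis, had 17 fragments (9.90 to 27.2) and 9.71-fold enrichment at chr12:2876692-2876903, 387 bp downstream of the canonical TSS. Starts of RHNO1 and TULP3 lie within 1000 bp of the same summit, and this was the 1 forkhead promoter peak shared with another protein-coding gene. FOXN2 had 13 fragments 765 bp downstream of its TSS over a local background of 1.25 fragments, which made 6.22-fold. Its local background was above the genome-wide level of 0.853 fragments, which the other 15 promoter peaks had. Over all genes, 4814 of 7838 pairs of a gene and a promoter peak had that level. With peaks at the genome-wide level alone, 12 of the 46 genes remained (26.1%), against 19.9% of all genes, and FOXN2 was the gene lost. FOXN3, a checkpoint factor, had 9 fragments and 5.40-fold enrichment 591 bp upstream of the canonical TSS, near the start of FOXN3-AS1. FOXN1, the regulator of thymic epithelium, had no summit within 47172 bp.

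**Figure D2:**
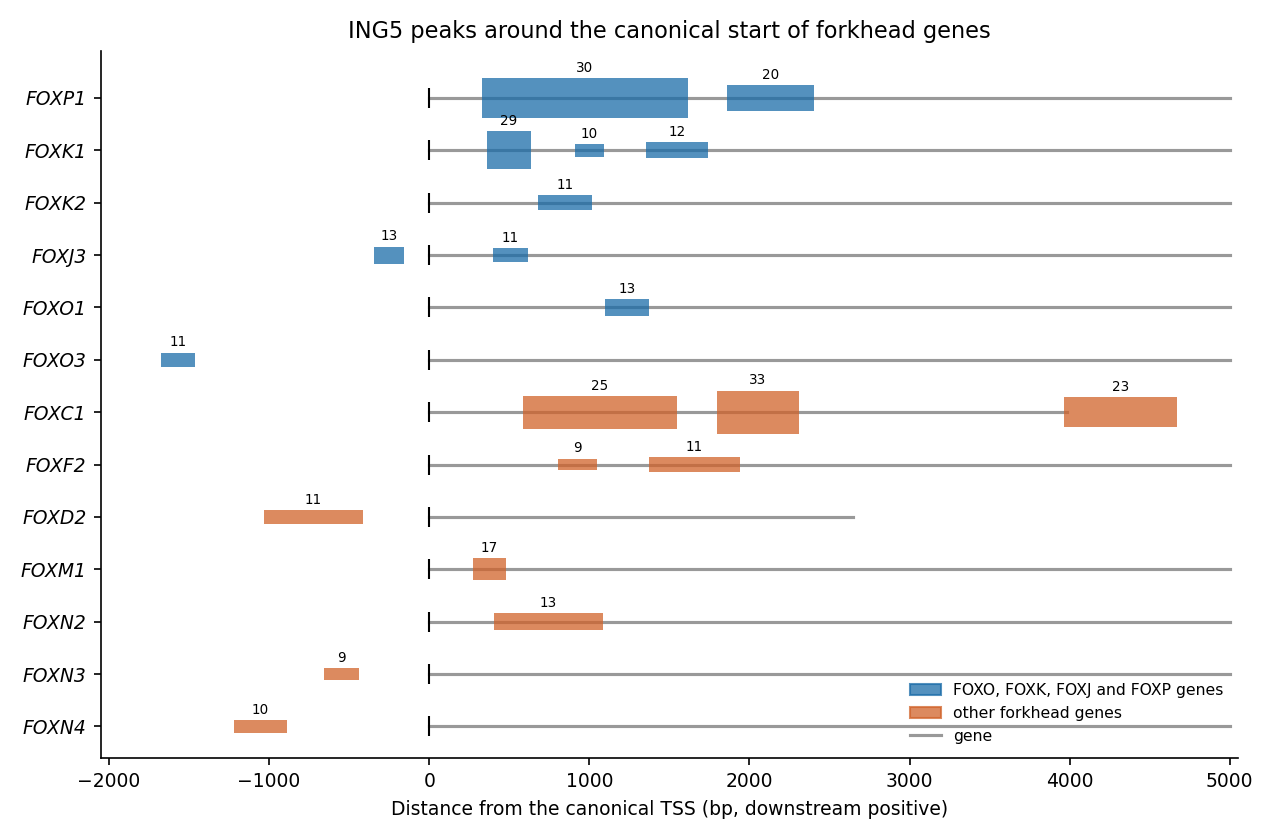
ING5 peaks drawn as boxes at their distance from the canonical TSS (bp) for 13 forkhead genes; box width is the peak length, box height and the number above it the pileup (fragments), and the grey line the gene as far as the axis runs. FOXC1 carries 3 peaks of 25, 33 and 23 fragments, FOXK1 3 of 29, 10 and 12, and FOXN4 a peak just outside the 1000 bp window. FOXN4 is drawn without having a promoter peak, and FOXP2, which has one, is not drawn. Peaks beyond the axis are left out, such as the FOXK2 promoter peak 73403 bp downstream of the canonical TSS.

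The other 33 members had no promoter peak, and for 23 of them the nearest summit was over 100000 bp away. The median distance was 174233 bp and the largest, at FOXD4L5, 3420710 bp. These distances were not set beside those of all 13693 protein-coding genes without a promoter peak. They are therefore not read as particular to forkhead genes. Besides FOXJ1 and FOXP3, a summit within 10000 bp was found for FOXN4 and FOXH1. FOXN4 missed the limit by little, with 10 fragments and 5.94-fold enrichment 1007 bp upstream of its TSS, while FOXF2, the gene nearest the limit on the inside, had its summit at 950 bp. The summit 2428 bp before FOXH1, a partner of nodal signalling, lay at the start of PPP1R16A. For 6 genes, FOXQ1, FOXR1, FOXE3, FOXN1, FOXD1 and FOXD4, the distance was between 10000 and 100000 bp. Among those with no summit within 100000 bp were FOXE1 of the thyroid, FOXL2 of the ovary, FOXD3 of the neural crest and FOXI1 of the inner ear. Others were FOXB1, FOXB2, FOXI2, FOXI3, FOXL3, FOXR2, FOXS1, FOXD4L1 and FOXD4L3.

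**Figure D3:**
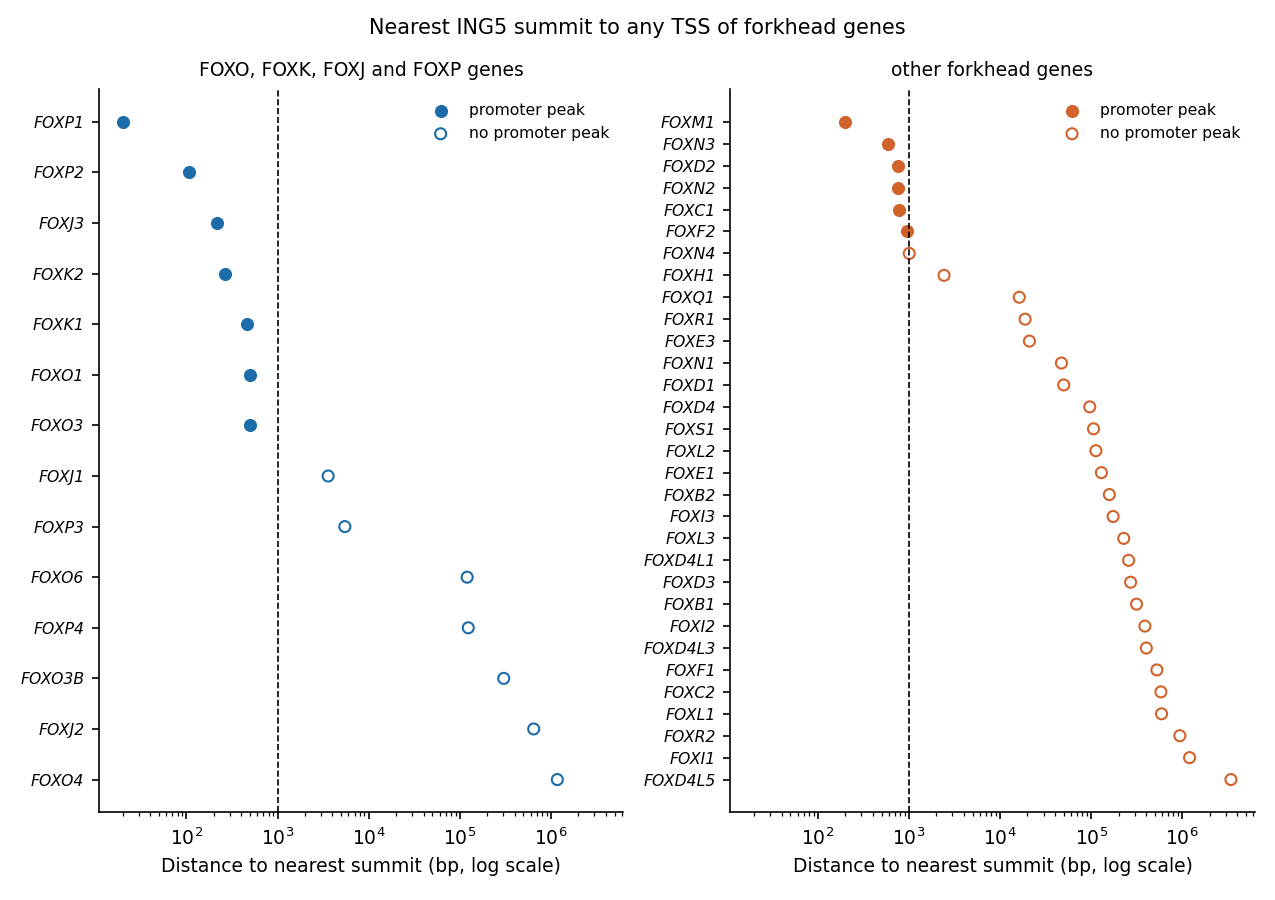
Distance from any TSS of a forkhead gene to the nearest ING5 summit (bp, log scale), leaving out 1 gene without a promoter peak that is not named here, for the FOXO, FOXK, FOXJ and FOXP genes on the left and the other forkhead genes on the right; filled points have a promoter peak and the dashed line marks 1000 bp. On the left 7 points are filled, and 6 on the right.

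By class, 7 of the 14 FOXO, FOXK, FOXJ and FOXP genes had a promoter peak (50.0%, exact binomial 23.0 to 77.0), and 6 of the 32 other forkhead genes (18.8%, 7.21 to 36.4). The 2 intervals overlap, and both classes' intervals hold the 30.9% of all genes. Without near-identical copies the shares were 7 of 13 (53.8%, 25.1 to 80.8) and 6 of 28 (21.4%, 8.30 to 41.0), against 30.9% of all genes. The classes also differed in how many starts are annotated, with a median of 4 distinct TSSs per gene in the broadly used class and 1 in the developmental class, against 5 over all protein-coding genes. Each TSS adds a window in which a summit can count. With canonical transcripts alone the shares were 3 of 14 (21.4%) and 6 of 32 (18.8%), against 27.9% of all genes, because FOXO1, FOXO3, FOXP1 and FOXP2 were counted through other starts. Moving FOXM1, FOXN2 and FOXN3 to the broadly used class, and FOXJ1, FOXO6, FOXP2 and FOXP3 to the developmental one, gave 9 of 13 (69.2%, 38.6 to 90.9) and 4 of 33 (12.1%, 3.40 to 28.2). All genes moved to the broadly used class had a promoter peak, and of those moved to the developmental one FOXP2 alone had one. The intervals of this second assignment do not overlap and neither holds 30.9%, so the reading depends on which genes are placed in each class. Whether the classes differ was not tested under either assignment. How far the number of starts accounts for the class difference was not tested.

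Set beside genes in the same group by number of annotated starts, the forkhead shares lay near those of all genes for up to 9 TSSs. They lay above them for 10 or more, within wide intervals. Of 20 forkhead genes with 1 TSS, 3 had a promoter peak (15%), against 13.5% of all such genes. Of 18 with 2 to 4 TSSs, 4 had one (22.2%), against 22.5%, and of 3 with 5 to 9 TSSs, 1 had one (33.3%), against 34.7%. All 5 forkhead genes with 10 or more TSSs had one, namely FOXK2, FOXM1, FOXN3, FOXP1 and FOXP2 (exact binomial lower bound 47.8%), against 45.6%. These 5 genes have 12, 10, 19, 67 and 30 TSSs. The last group has no upper limit, so the number of starts is not matched within it. Gene structure ran alongside: 17 of the 46 forkhead genes have a canonical transcript of 1 exon (37%), against 5.41% of all protein-coding genes, and all 17 are in the developmental class. Of these 17, FOXC1 and FOXD2 had a promoter peak (11.8%), against 14.0% of all genes of 1 exon. FOXD4, FOXD4L1, FOXD4L3 and FOXD4L5 are among these 17 and among the 20 genes with 1 TSS. FOXO3B is among the 18 with 2 to 4 TSSs. A missing peak at these near-identical copies is no measure of binding, so the order of such close shares is not settled. Of 14 forkhead genes with 5 or more exons, 8 had one (57.1%, 28.9 to 82.3), against 34.4%.

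Promoter CpG content was high at nearly all bound members and at many unbound ones. The ratio of observed to expected CpG within 500 bp of the canonical TSS was 0.75 or more at 12 of the 13 forkhead genes with a promoter peak, and at 17 of the 33 without. The exception was FOXP2, with a ratio of 0.180 at a canonical start that is far from its peak. In the group at 0.75 or more, 12 of 29 forkhead genes had a peak (41.4%, 23.5 to 61.1), against 48.2% of all genes of that group. From 0.48 to 0.75, 0 of 8 had one (exact upper bound 36.9%), against 28.5%, and below 0.48, 1 of 9, against 4.78%. Near-identical copies, where a missing peak is no measure of binding, are in all 3 groups. FOXO3B is among the 29, FOXD4 and FOXD4L3 among the 8, and FOXD4L1 and FOXD4L5 among the 9.

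**Figure D4:**
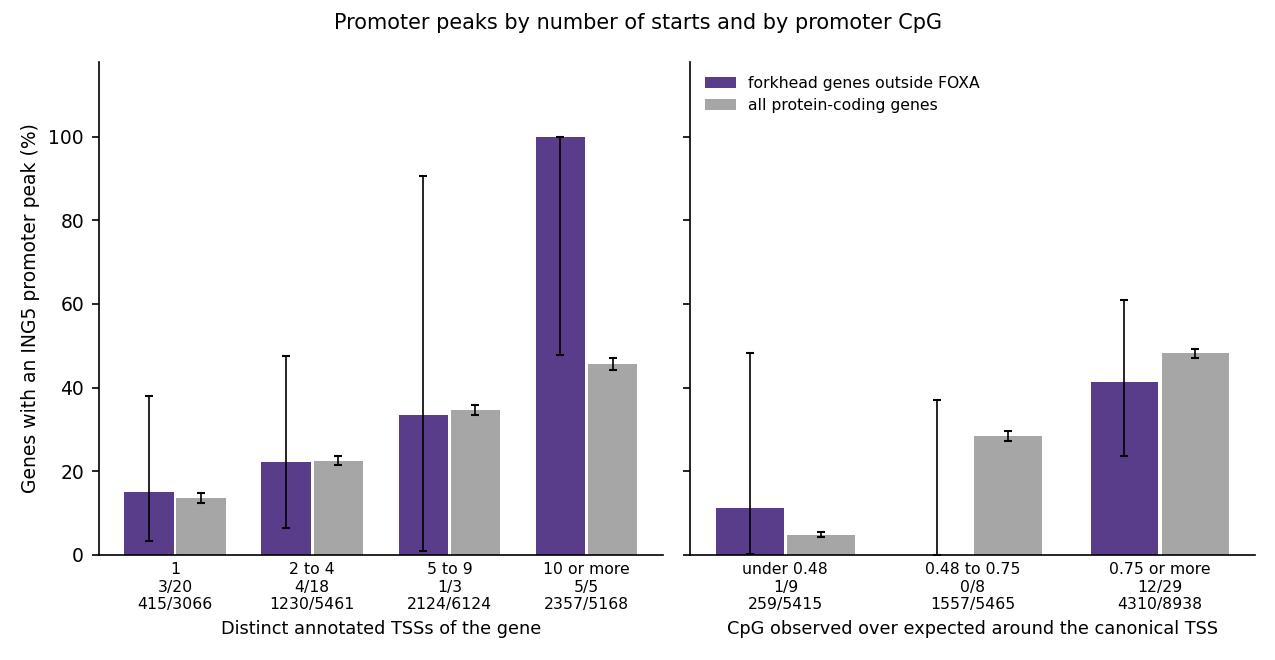
Percentage of genes with an ING5 promoter peak among forkhead genes outside FOXA (purple) and all protein-coding genes (grey), by number of annotated TSSs and by CpG observed over expected; bars are shares, lines exact binomial 95% intervals, and the counts stand under each group. The purple bars lie near the grey ones for 1 to 9 TSSs, and no forkhead gene with a CpG ratio from 0.48 to 0.75 has a peak.

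The promoter windows of the sequence table run from 250 bases before to 50 after the TSS, and 36 of the 46 genes matched an entry. The upstream peak of FOXJ3 reached into its window and is shown here for the part that lies in the window, chr1:42335395-42335485, on the minus strand, with CpG in capitals.
FOXJ3: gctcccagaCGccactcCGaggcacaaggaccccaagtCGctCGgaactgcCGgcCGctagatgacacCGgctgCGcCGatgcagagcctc
The stretch of 91 bases has 9 CpG and ends before the TSS. In the whole 300-base windows, the core forkhead motif TGTTTAC was searched on both strands. It was found at 1 of the 36 forkhead genes, FOXO4 (2.78%), and at 3.42% of the 35116 promoters, and at none of the 11 matched genes with an ING5 peak.

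Summits at forkhead genes had a larger median distance from the start than those of all genes, and the intervals overlap at the lower end. The median distance to the nearest TSS was 482 bp (218 to 764), against 287 bp (279 to 294) over all gene and peak pairs. The FOXO, FOXK, FOXJ and FOXP peaks had a median of 295.5 bp (106 to 502), and the peaks at the other forkhead genes 764.5 bp (199 to 950). Of the 6 summits at the other forkhead genes, FOXM1 at 199 bp was the nearest. Downstream of the TSS lay 10 of the 16 summits (62.5%, 35.4 to 84.8), against 67.5% of all pairs. With canonical starts alone it was 7 of 10 (70.0%), against 77.8%. By annotation 3 summits were in coding exons, at FOXK1, FOXC1 and FOXF2, 11 in introns of the canonical or another transcript and 2 outside the gene. The median length of the forkhead peaks was 278 bp (219 to 683), against 365 bp (360 to 373). With the upper of 2 equal parts of the list by significance the order turned round, at 545 bp for forkhead peaks, against 477 bp.

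Beside other families of transcription factor genes, the forkhead genes had a lower share with a peak, within overlapping intervals. A promoter peak was found at 13 of 46 forkhead genes (28.3%, 16.0 to 43.5), against 16 of 39 HOX cluster genes (41.0%, 25.6 to 57.9) and 19 of 48 nuclear receptor genes (39.6%, 25.8 to 54.7). Without near-identical copies the forkhead share was 13 of 41 (31.7%). The median number of TSSs per gene was 2 for forkhead, 2 for HOX and 8 for nuclear receptor genes, and its part was not tested. FOXA1, FOXA2 and FOXA3, the forkhead factors of liver, had none. The median length was 278 bp for forkhead peaks, against 607 bp for HOX pairs and 291 bp for nuclear receptor pairs. The highest pileup at a forkhead promoter was the 30 fragments of FOXP1, against 49 at HOXA9 and 36 at NR2F2. Of the 16 forkhead peaks, 1 was 1000 bp or longer, against 9 of 28 HOX pairs, where a peak can count for 2 genes, 2 of 33 nuclear receptor pairs and 444 of the 7838 pairs of all genes.

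Shares in lists of genes that act with forkhead proteins were higher than the 28.3% of the forkhead genes, whose interval of 16.0 to 43.5 overlaps that of each list, barely so for the FOXO regulators. Of 19 genes that regulate FOXO proteins, 13 had a promoter peak (68.4%, 43.5 to 87.4), against 30.9% of all genes. Among them were the ubiquitin ligase gene SKP2 with 35 fragments and 10.4-fold enrichment and the kinase gene SGK1 with 24 fragments and 11.1-fold. These 19 genes have a median of 15 TSSs and a median CpG ratio of 0.904, against 5 and 0.726 over all genes, and the part of either in the share was not tested. Among 17 genes known as FOXO targets, 11 had one (64.7%, 38.3 to 85.8), led by the cell cycle inhibitor gene CDKN1B with 53 fragments, CITED2 with 19 and BCL6 with 20. Those without one included the liver targets G6PC1, PCK1 and IGFBP1, named after their values were seen, and also targets outside this liver group. Partners and targets of FOXM1 had a promoter peak at 9 of 15 (60.0%, 32.3 to 83.7), with CDC25B at 26 fragments, RBBP4 at 19 and CENPA at 18. Of 6 FOXK partners, 4 had one (66.7%, 22.3 to 95.7): ASXL2 with 15 fragments, ASXL1 and BAP1 with 11 each and SIN3A with 10. Medians of TSSs and CpG ratio were 6 and 0.823 for the FOXO targets, 7 and 0.762 for the FOXM1 list. They were 13.5 and 0.888 for the FOXK partners. All lie above those of all genes, and their part in these shares was not tested either.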

How the data were processed

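ING5 ChIP was analysed from the deposited peak list of 1 library. Per the file headers, its authors called it against 1 input library by paired-end fragments, using MACS2 (2.1.1.20160309) with p at most 1e-05. The headers call the ChIP library by another name than its labels do, and the list was taken as that library's because it is deposited with it. The submitters' processing notes list Bowtie2, deepTools and fastp 0.19.6, and their settings are not given in the sources used here. The deposited pileup is a coverage signal in fragments, whole in 100.0% of peaks. The deposited fold enrichment is a ratio, read as pileup plus 1 over local background plus 1, from which local background was computed, and the deposited −log10 p ranked the peaks. The deposited −log10 q was not used. The labels name GRCh37, but 5558 summits lay within 1000 bp of a canonical TSS at its GRCh38 position and 560 at its GRCh37 position, so the list was read as GRCh38. TSSs came from the original GRCh38 positions recorded in the version of GENCODE 44 mapped to GRCh37, on chromosomes 1 to 22 and X. Genes without an entry in that version are missing. CpG content was read in GRCh37 around GRCh37 starts and joined by gene identifier. Intervals are exact Clopper-Pearson for shares, exact Poisson for pileups and binomial order statistics for medians, at 95%, with scipy 1.17.1. Genes are not replicates, and no test was run. Each bound member is given with its most significant promoter peak. The members and lists were chosen with earlier results of these data known, and the CpG, TSS and exon groups after the values were seen. The join of peaks to genes was tested on simulated data. Some items of the lists are counted but not reported here by name. Alternatives changed the window, the overlap, the peak threshold, the TSS set, the background, the copies and the class assignment.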

Additional observations from a re-analysis of the deposited data

How the results depend on the processing

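The 13 forkhead genes with a promoter peak became 15 with a window of 3000 bp (32.6%, against 32.9% of all genes) and 14 with any base of the peak in the window (30.4%, against 31.4%). They became 12 at the genome-wide background alone (26.1%, against 19.9%), and 9 both with the upper of 2 equal parts of the list by significance (19.6%, against 19.3%) and with canonical transcripts alone (19.6%, against 27.9%). Without near-identical copies it was 13 of 41 (31.7%, against 30.9%). A window of 200 bp left 3 genes (6.52%, against 13.5%), 2 in the broadly used class and 1 in the developmental one, with a median distance of 106 bp, since it admits near summits alone. All 3 summits there were downstream (100%, against 69.0% of all pairs), and the cause was not tested. The 1000 most significant peaks also left 3 genes (6.52%, against 4.77%), 2 and 1 by class. Median pileup was 27 fragments, against 22 over all pairs, and fold enrichment 15.1, against 11.3. Median length was 755 bp, against 785 bp. This setting keeps stronger peaks by construction. With canonical transcripts alone the broadly used class fell to 3 genes, against 7, while the developmental class stayed at 6, since fewer starts were counted. No paired analysis was possible because each group has 1 library and the input has no values of its own here. Summits in the list had 7 fragments or more, a limit that depends on depth, on the p limit of 1e-05 and on local background.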
